A study of Rattus norvegicus with 20 samples.

Results

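A set of 10 genes that mark fibroblasts and the cells of the meninges was followed through injured rat spinal cord and the white matter of the brain. They were Dcn, Lum, Aspn, Ogn, Igf2, Slc6a13, Ptgds, Pdgfrb, Fn1 and Postn. The genes were chosen by symbol from the 30443 genes of the expression table, and all 10 were found. Aspn and Ogn each had 2 entries, and the entry with the higher mean was used. All 10 were among the 15210 genes tested, which reached 1 FPKM in 1 or more libraries, although Aspn did so only in region 5 of the stimulated animals. FPKM counts fragments relative to transcript length and library size, so levels can be compared between genes.

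The meninges are layers of fibroblasts, collagen and vessels that wrap brain and cord, and fibroblasts also lie along the larger vessels inside. After injury, fibroblasts of the meninges and vessels lay down matrix that becomes the fibrotic core of the scar, within a border of astrocytes. Dcn (decorin), Lum (lumican), Ogn (osteoglycin) and Aspn (asporin) encode small leucine-rich proteoglycans, which bind collagen and set how its fibrils assemble. Fn1 encodes fibronectin, the adhesive glycoprotein of provisional matrix, and Postn encodes periostin, a matricellular protein of healing and fibrotic tissue. Igf2 is a growth factor made by meninges and choroid plexus. Slc6a13 encodes the GABA and taurine transporter GAT2 of the leptomeninges, and Ptgds the prostaglandin D2 synthase that meninges release into cerebrospinal fluid and that oligodendrocytes also make. Pdgfrb is the PDGF receptor of pericytes and fibroblasts.

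RNA came from 4 wild-type adult female Long-Evans rats aged 6 to 8 months, an outbred strain. All 4 had a hemi-contusion of the cervical cord with a displacement of 0.7 mm, and electrodes were later placed in motor cortex on the side opposite the injury. In the 2 stimulated animals current was passed at 80% of the movement threshold, at 10 Hz for 5 hours per day, in cycles of 5 minutes on and 2 minutes off. The 2 control animals had the same injury and implant and were connected without current, so no animal here was uninjured or without an implant. Region 1 was subcortical white matter below the electrodes and region 2 its counterpart on the other side of the brain. The cord gave region 3, rostral to the lesion, region 4 at its epicenter and region 5 caudal to it. Each region of each animal gave 1 library, which made 20 libraries.

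The table keeps no read numbers, so precision rests on the spread between animals. The label of white matter was checked against markers. Slc17a7, a transporter of cortical excitatory neurons, was listed at 225 to 329 FPKM in the 8 white matter libraries and at no more than 11.8 FPKM in cord, so the white matter libraries also held transcripts of cortical neurons. All 8 oligodendrocyte markers were lower in white matter than in cord. Among fibroblast markers, Col1a2, Mfap4 and Omd were listed at the floor of 0.1 FPKM in all 20 libraries. Col1a1, whose chain pairs with that of Col1a2, was listed at 1.09 to 38.9 FPKM, so a listing at 0.1 may be a failed estimate. Choroid plexus markers were low, with a summed level of 2.75 to 8.14 FPKM and at most 3.97 FPKM for Ttr. In bulk tissue, fewer cells of a type and less RNA per cell cannot be told apart.

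Promoter windows are shown for 4 of the matrix genes, because 3 are proteoglycan genes that shared a direction between brain and cord and Postn had the opposite one. They are the 250 bases upstream of the RefSeq start on the rat assembly GRCr8, a later build than the one used for alignment, written 5′ to 3′ on the strand of the gene. Capitals mark matches to 4 motifs, searched on both strands. The TATA box was searched as TATAAA. The letters of the AP-1 site were TGANTCA, those of the E-box were CAGCTG, and the last motif was the box named CCAAT. Lum lies at chr7:34245456-34245705 on the plus strand and Aspn at chr17:15310470-15310719 on the minus strand. Ogn lies at chr17:15258996-15259245 on the minus strand and Postn at chr2:140677811-140678060 on the plus strand. RefSeq promoters were matched for 6 of the 10 genes, and Dcn, Pdgfrb, Fn1 and Slc6a13 had no entry.
Lum: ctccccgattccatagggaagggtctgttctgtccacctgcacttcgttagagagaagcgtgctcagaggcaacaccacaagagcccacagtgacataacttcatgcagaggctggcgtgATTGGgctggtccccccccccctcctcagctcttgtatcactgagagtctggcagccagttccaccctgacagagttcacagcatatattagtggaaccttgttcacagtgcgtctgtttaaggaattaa
Ogn: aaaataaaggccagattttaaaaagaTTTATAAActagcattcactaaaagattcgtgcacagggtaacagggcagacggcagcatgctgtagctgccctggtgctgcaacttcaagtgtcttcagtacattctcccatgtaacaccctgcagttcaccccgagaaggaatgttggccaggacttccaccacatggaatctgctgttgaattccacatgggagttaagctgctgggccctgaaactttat
Aspn: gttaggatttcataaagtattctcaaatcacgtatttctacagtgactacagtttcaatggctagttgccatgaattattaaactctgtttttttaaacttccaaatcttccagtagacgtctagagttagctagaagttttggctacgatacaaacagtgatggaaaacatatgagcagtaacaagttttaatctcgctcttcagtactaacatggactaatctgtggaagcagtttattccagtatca
Postn: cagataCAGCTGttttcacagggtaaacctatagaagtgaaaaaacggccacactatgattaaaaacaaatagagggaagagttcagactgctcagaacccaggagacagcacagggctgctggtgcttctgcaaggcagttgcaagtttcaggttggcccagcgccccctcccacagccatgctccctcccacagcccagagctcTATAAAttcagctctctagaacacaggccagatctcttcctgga
The Postn window held TATAAA from base 44 to base 39 before the start and CAGCTG from base 244 to base 239. Lum held CCAAT on the reverse strand from base 130 to base 126. In Ogn, TATAAA stood on both strands, overlapping, from base 224 to base 217. The Aspn window held none of the 4 motifs. Of 33469 rat promoters of this kind, 12.9% held the TATA box letters, 12.0% those of the E-box, 34.0% CCAAT and 6.34% those of the AP-1 site.

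On GRCr8 Lum lies next to Dcn, and Ogn, Omd and Aspn are neighbors. The other small leucine-rich genes of the first cluster were listed at or near the floor. Kera was listed at 0.1 FPKM in all 20 libraries and Epyc at no more than 0.144 FPKM. Omd was at 0.1 FPKM as well, between Ogn and Aspn, and such listings may be failed estimates.

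Across all libraries Ptgds was by far the most abundant of the 10, with 152 to 2379 FPKM and a median of 1012. Igf2 (median 22.1 FPKM), Dcn (15.4), Fn1 (8.95) and Ogn (8.65) came next. Slc6a13 (5.71), Lum (3.82) and Pdgfrb (3.48) were lower, Postn had a median of 1.53 and Aspn of 0.166. The ranges of neighbors in this order overlapped below Ptgds.

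**Figure D1:**
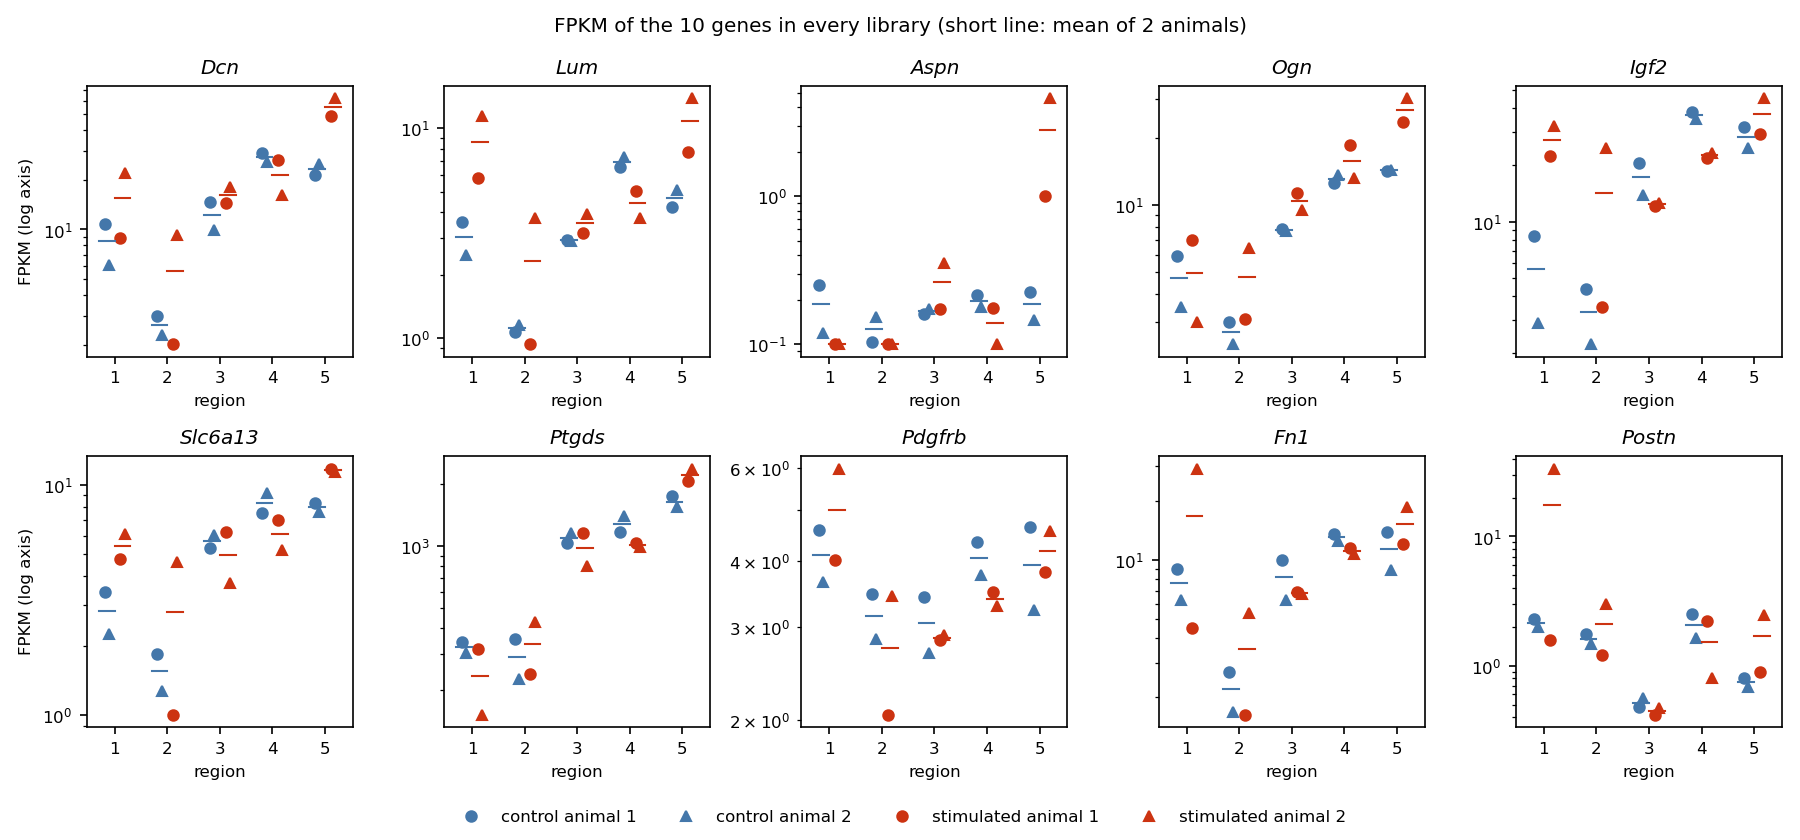
FPKM (log axis) of each of the 10 genes by region, with 1 point per library, circles for animal 1 and triangles for animal 2 of each group, blue for control and red for stimulated, and a short line at the mean of 2 animals. Ogn and Ptgds lie higher in every cord library than in every white matter library, Pdgfrb stays between 2.05 and 5.98, and Postn has a single library at 33.4 in region 1.

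The first comparison asked how brain white matter and cord differed. Fits of regions had no term for the animal unless stated, although the regions came from the same animals. Of the 10 genes, 8 were lower in white matter, Postn was higher and Pdgfrb did not pass the test. Aspn, counted among the 8 and in the median below, passed the filter only through stimulated cord libraries, so its direction here supports nothing. Ptgds, Dcn, Ogn and Igf2 had the largest differences. The 10 genes had a median log2 fold change of -1.30 against -0.18 over all genes tested. With 72.2% of all genes past the threshold in this comparison, 47.1% lower and 25.0% higher, 9 of 10 genes past it was not far from the background. Under quantile normalization the split over all genes moved to 6018 lower and 5054 higher, from 7169 and 3808, and the median of all genes to -0.04.

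Among the proteoglycans, Dcn ran from 2.02 to 22.1 FPKM in the 8 white matter libraries, with a median of 7.47, and from 9.86 to 62.2 in the 12 cord libraries, with a median of 23.2. Its log2 fold change was -1.93 ± 0.29 (SE), with a limma adjusted p of 7.9e-06. Dcn was lower in white matter in 4 of 4 animals, but the ranges overlapped, since region 1 of control animal 1 and of stimulated animal 2 exceeded the lowest cord library. Ogn was 2.38 to 6.98 FPKM (median 3.30) in white matter and 7.64 to 30.1 (median 13.4) in cord. Its log2 fold change was -1.77 ± 0.20, with an adjusted p of 2.07e-07 in limma. Ogn was 1 of 2 genes of the 10 whose ranges did not overlap, as against 16.8% of all genes that were lower without overlap.

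Lum differed less. It had 0.938 to 11.5 FPKM (median 3.04) in white matter and 2.89 to 13.9 (median 4.64) in cord, a log2 fold change of -0.89 ± 0.30 with a limma adjusted p of 0.0117. It was lower in 3 of 4 animals, and it did not pass without control replicate 1 (-0.81), without control replicate 2 (-0.69) or without stimulated replicate 1 (-0.82). The difference was not uniform, as the Lum median of 4.70 FPKM in region 1 was above the 3.06 of region 3. Aspn, lowest of the 4, was at 0.1 to 0.253 FPKM in white matter and 0.1 to 4.60 in cord, with -1.17 ± 0.49 and a limma adjusted p of 0.037. Most of its values lay near the floor, it was tested only through region 5 of the stimulated animals, and the call was lost with either pseudocount, with no filter, under quantile normalization, without stimulated replicate 1 (-1.02) and without stimulated replicate 2 (-0.75).

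The meningeal genes fell in the same direction. Ptgds had 152 to 429.6 FPKM (median 309.8) in white matter and 802 to 2379 (median 1166) in cord. Every cord library lay above every white matter library, with a log2 fold change of -2.21 ± 0.16 and a limma adjusted p of 3.21e-10. Igf2 had 2.22 to 32.1 FPKM (median 6.35) in white matter and 12.2 to 45.3 (median 23.8) in cord, a change of -1.59 ± 0.42 with a limma adjusted p of 0.00239. It was lower in 3 of 4 animals, and region 1 of both stimulated animals and region 2 of stimulated animal 2 lay within the cord range. Slc6a13 was 1.01 to 6.08 FPKM (median 2.82) in white matter and 3.74 to 11.7 (median 7.28) in cord, with -1.42 ± 0.24 and a limma adjusted p of 3e-05.

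Fibronectin and periostin, both found in wound matrix, differed in direction. Fn1 was 1.63 to 29.2 FPKM (median 4.94) in white matter and 6.28 to 18.6 (median 11.1) in cord, a log2 fold change of -1.11 ± 0.28 with a limma adjusted p of 0.00176. Postn was 1.21 to 33.4 FPKM (median 1.88) in white matter and 0.417 to 2.51 (median 0.803) in cord. It was higher in white matter in 4 of 4 animals, by 1.49 ± 0.45 on the log2 scale with a limma adjusted p of 0.00623, and by 0.87 without stimulated replicate 2. This held for the pooled regions only, as the Postn median at the epicenter, 1.92 FPKM, was above the 1.62 of region 2. The medians of regions 3 and 5 were 0.476 and 0.843 FPKM. Pdgfrb had a median of 3.55 FPKM in white matter and 3.46 in cord, and its log2 fold change of 0.03 ± 0.11 did not pass (limma adjusted p of 0.835).

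Marker lists were read against the 47.1% of all genes that were lower here and the 25.0% that were higher. Of 20 other fibroblast matrix genes tested, 9 were lower in white matter, near the share of all genes, and 1 was higher, below that share. Of 18 other meningeal genes 10 were lower and 4 higher, both near these shares. Of 11 endothelial genes 9 were lower, and of 13 other mural genes 9 were lower and 1 higher. Of 6 Schwann cell markers 5 were lower and 1 higher. The sum of 8 markers of oligodendrocytes, which also make Ptgds, was 729 to 3009 FPKM in white matter and 7576 to 10985 FPKM in cord. The part of nerve root cells, vessel cells and oligodendrocytes in the result was not tested.

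**Figure D2:**
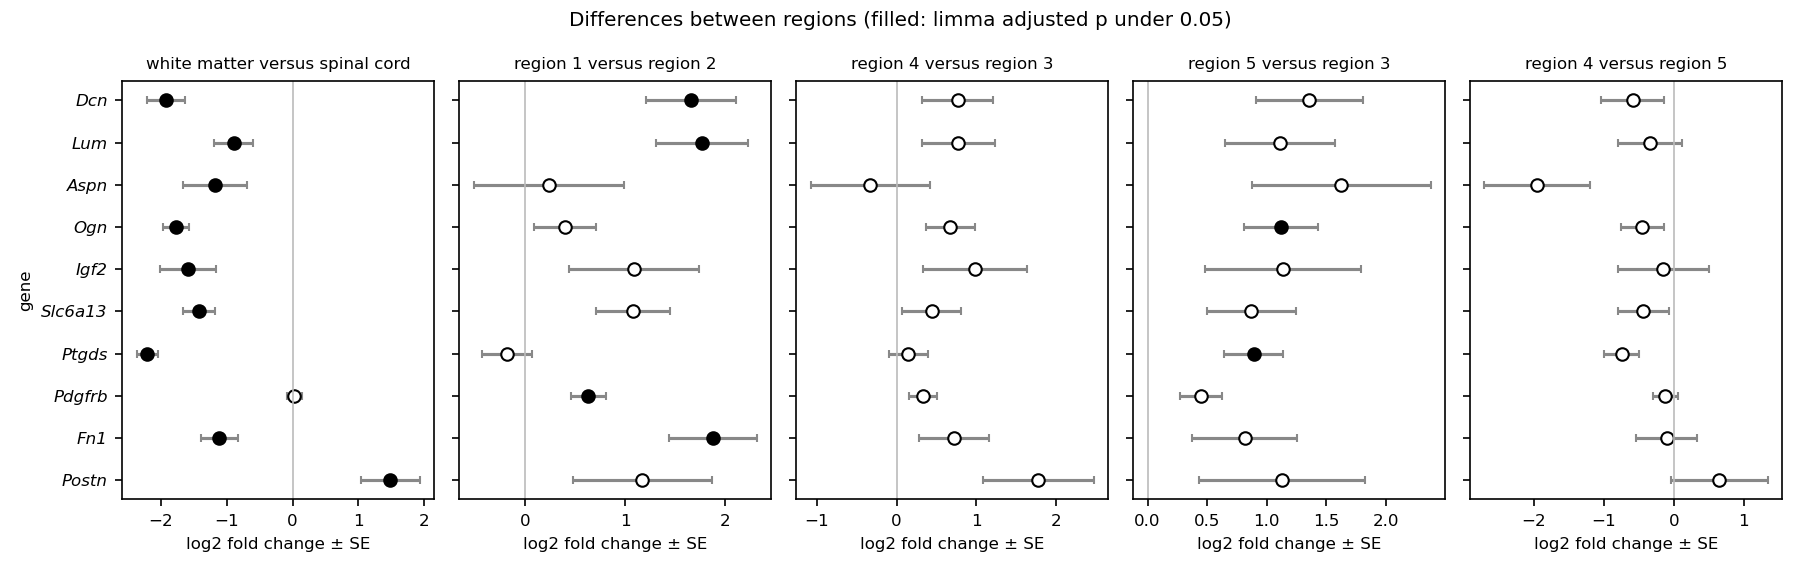
Log2 fold change (points) and its standard error (bars) of the 10 genes in 5 comparisons of regions, filled where the limma adjusted p was under 0.05; the axis of each panel has its own range. For 8 genes the points lie left of 0 for white matter against spinal cord, and all 10 lie right of 0 for region 5 against region 3. Aspn passed the filter only through stimulated libraries of region 5.

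The next comparison set white matter below the electrodes against the same tissue of the other hemisphere, in the same 4 animals. Dcn, Lum, Fn1 and Pdgfrb were higher below the electrodes, a count of 4 of 10 where 8.61% of all genes passed the threshold. Over all genes 1043 were higher and 267 lower, and under quantile normalization 943 and 841. The median log2 fold change of the 10 was 1.09, as against 0.06 over all genes, and 9 of the 10 were above 0.

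Fn1 stood at 8.99, 6.26, 4.50 and 29.2 FPKM in region 1 of control animals 1 and 2 and stimulated animals 1 and 2, and at 2.71, 1.69, 1.63 and 5.39 in region 2 of the same animals. Each animal thus had more below its electrodes, and the change was 1.88 ± 0.44 on the log2 scale (limma adjusted p of 0.015). Lum had 3.59, 2.48, 5.81 and 11.5 FPKM in region 1 against 1.08, 1.16, 0.938 and 3.74 in region 2, a change of 1.77 ± 0.46 (limma adjusted p of 0.0244). For Dcn the levels were 10.9, 6.07, 8.87 and 22.1 FPKM against 3.00, 2.30, 2.02 and 9.25. Dcn was higher in 4 of 4 animals, by 1.66 ± 0.45 (limma adjusted p of 0.0297), though region 2 of stimulated animal 2 exceeded region 1 of 2 other animals.

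Pdgfrb changed least of the 4 but was the 1 gene without overlap, where 4.4% of all genes were higher without overlap. It was at 3.65 to 5.98 FPKM in region 1 and 2.05 to 3.46 in region 2, a change of 0.63 ± 0.17 (limma adjusted p of 0.0322). Slc6a13 (1.08 ± 0.37), Igf2 (1.09 ± 0.65) and Postn (1.17 ± 0.70) were each higher in 4 of 4 animals without passing, and Ogn (0.40 ± 0.31) in 3 of 4. Ptgds differed by -0.18 ± 0.25 and was higher below the electrodes in 2 animals and lower in 2. With control libraries alone the value for Ptgds was 0.19.

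None of the 10 passed without control replicate 1, without control replicate 2 or without stimulated replicate 1, while 6 passed without stimulated replicate 2. Over all 15210 genes the calls in these settings were 95, 97, 26 and 3674, so they moved across the whole table. Of other fibroblast matrix genes 7 of 20 were higher, where 6.86% of all genes were, among them Col1a1 (2.67 on the log2 scale) and Tnc (2.04). Cd68, a lysosomal protein of macrophages, was higher by 3.12, and the summed level of 8 microglia and macrophage markers was 110.4 to 245 FPKM in region 1 and 49.9 to 258 in region 2. Of 8 oligodendrocyte markers 6 were also higher, as were 4 of 13 other mural markers. Their part in the result was not tested.

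Along the cord, the epicenter was compared with rostral cord. None of the 10 genes passed the limma threshold, which 19.6% of all genes did, while 2 had an unadjusted p under 0.05, as did 34.7% of all genes. Of the 10, 9 were above 0 and the median log2 fold change was 0.70, against -0.02 over all genes. Postn had the largest change. It was at 2.51, 1.62, 2.22 and 0.809 FPKM in region 4 of control animals 1 and 2 and stimulated animals 1 and 2, and at 0.478, 0.559, 0.417 and 0.474 FPKM in region 3. All 4 epicenter libraries lay above all 4 rostral libraries, by 1.78 ± 0.70 with a limma adjusted p of 0.0775.

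Igf2, Ogn and Fn1 also had separate ranges. Igf2 was at 21.9 to 38.5 FPKM at the epicenter and 12.2 to 20.6 rostral to it, a difference of 0.99 ± 0.65, and Fn1 at 10.8 to 13.6 against 6.28 to 10.0, a difference of 0.71 ± 0.44. For Ogn the levels were 12.6 to 18.5 against 7.64 to 11.4 FPKM, with 0.68 ± 0.31. These made 4 of 10 genes higher without overlap, where 13.0% of all genes were. Dcn (0.77 ± 0.45) and Lum (0.77 ± 0.46) were higher in the epicenter of 3 of 4 animals and lower in that of stimulated animal 2. Without stimulated replicate 2, 3 genes passed, namely Postn, Dcn and Lum, and the same 3 passed in control libraries alone. Of all 15210 genes, 4909 and 3265 passed in these settings, of which 2391 and 1353 were higher at the epicenter. Slc6a13 (0.44 ± 0.37) and Pdgfrb (0.33 ± 0.17) were higher in 4 of 4 animals.

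Microglia and macrophage markers were also high at the epicenter, where 4 of 8 passed and their summed level was 188 to 358 FPKM, against 97.2 to 144.5 rostral to it. In stimulated animal 2 that sum was 188 FPKM, the lowest of the 4, and Cd68 was 13.1 FPKM as against 31.9 to 45.2 in the other 3. Of other fibroblast matrix genes, 3 of 20 were higher, where 6.78% of all genes were higher and 19.6% were called in either direction. The part of immune cells in these values was not tested.

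Caudal cord was then compared with rostral cord. All 10 genes were higher in region 5, with a median log2 fold change of 1.12 against 0.11 over all genes, and 7 of 10 had separate ranges where 20.5% of all genes were higher without overlap. Aspn, not among these 7, passed the filter only through stimulated libraries of region 5, so its direction here supports nothing. Ogn and Ptgds passed the threshold, and 4.32% of all genes did. Under quantile normalization the median of all genes was -0.02 and the split of calls 435 higher and 674 lower, from 422 and 235, while all 10 genes kept their sign.

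Ogn was at 14.3, 14.4, 23.5 and 30.1 FPKM caudal to the lesion in control animals 1 and 2 and stimulated animals 1 and 2, and at 7.79, 7.64, 11.4 and 9.50 FPKM rostral to it. The difference was 1.12 ± 0.31 on the log2 scale, with a limma adjusted p of 0.0475. Ptgds was at 1752, 1544, 2074 and 2379 FPKM against 1037, 1160, 1161 and 802, a difference of 0.89 ± 0.25 with a limma adjusted p of 0.0477. Both genes were higher in each animal, and the stimulated animals had the wider gap. With the animal as a block in the fit, Ogn (limma adjusted p of 0.0275) and Dcn (0.0439) passed and Ptgds (0.0553) did not.

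Dcn (1.36 ± 0.45), Lum (1.11 ± 0.46), Slc6a13 (0.87 ± 0.37), Igf2 (1.14 ± 0.65) and Postn (1.13 ± 0.70) had separate ranges and did not pass. Aspn (1.63 ± 0.75) was at 0.227, 0.146, 1.01 and 4.60 FPKM in region 5, and it was tested only through the 2 stimulated libraries there. Without those 2 libraries of region 5 it was -0.16, and no gene of the 10 passed. Fn1 (0.82 ± 0.44) and Pdgfrb (0.45 ± 0.17) were higher in 4 of 4 animals with overlapping ranges. Leaving out any 1 animal left 0 or 1 of the 10 past the threshold. Over all genes, 44 passed without the stimulated libraries of region 5 and 54 to 1237 with 1 animal left out, from 657. Whether the lost calls reflected the stimulated animals or the smaller number of libraries was not tested.

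The epicenter against caudal cord gave 0 calls among the 10 in limma, where 7.99% of all genes were called. Over all genes 142 were higher and 1074 lower, and under quantile normalization 195 and 275. At an unadjusted p under 0.05 there were 2 of the 10 and 29.0% of all genes. Ptgds was lower at the epicenter in 4 of 4 animals, at 988 to 1405 FPKM against 1544 to 2379 (-0.75 ± 0.25, limma adjusted p of 0.0644), as were 16.3% of all genes without overlap. Aspn differed by -1.95 ± 0.75 and Postn by 0.65 ± 0.70. Dcn (-0.59 ± 0.45) and Lum (-0.34 ± 0.46) were higher at the epicenter in the 2 control animals and lower in the 2 stimulated animals. In control libraries alone they differed by 0.24 and 0.58. This split by group leads to the comparisons of stimulated with control animals.

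Stimulated and control animals were compared within each region, 2 against 2. An exact permutation test of such groups cannot give a p below 0.333, and limma called none of the 10 genes in any region. Replicate numbers name different animals in these groups. Caudal to the lesion, in region 5, the 9 genes other than Aspn were all higher in stimulated animals. With Aspn the median log2 fold change was 0.71 against 0.05 over all genes. Aspn entered the tests only through these stimulated libraries, so its direction supports nothing and it is left out of the next counts. Of the other 9 genes, 4 had an unadjusted p under 0.05, as did 3.59% of all genes. Separate ranges were found for 6 of the 9, where 18.5% of all genes were higher without overlap. The threshold was passed by 0.0197% of all genes.

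Dcn was at 21.4 and 25.1 FPKM in region 5 of the control animals and at 48.7 and 62.2 FPKM in the stimulated animals. Both stimulated values were above both control values, a change of 1.25 ± 0.17 on the log2 scale with a limma adjusted p of 0.536. Ogn was at 14.3 and 14.4 FPKM against 23.5 and 30.1, a change of 0.89 ± 0.15 (limma adjusted p of 0.744). Lum was at 4.22 and 5.08 FPKM against 7.73 and 13.9, a change of 1.16 ± 0.33 (limma adjusted p of 1). Thus 3 abundant proteoglycan genes were higher in both stimulated animals, and stimulated animal 2 was the higher of the pair for each.

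Aspn had passed the filter on low values only because it was high in these stimulated libraries, so its difference here is a description. It was at 0.227 and 0.146 FPKM in the control animals and 1.01 and 4.60 FPKM in the stimulated animals, a change of 3.57 ± 0.81. The 2 stimulated animals differed between themselves by more than 4 times. The second Aspn entry reached 2.02 FPKM and was at 0.1 in 16 of 20 libraries, so the division of reads between the 2 entries is uncertain. Postn was at 0.797 and 0.689 FPKM against 0.888 and 2.49 (1.01 ± 0.55), with stimulated animal 1 close to the controls.

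Slc6a13 was at 8.33 and 7.62 FPKM in region 5 of the control animals and 11.7 and 11.4 FPKM in the stimulated animals. These pairs were tight, and the change was 0.53 ± 0.10 with a limma adjusted p of 0.85. Ptgds was at 1752 and 1544 against 2074 and 2379 FPKM, also without overlap. Igf2, Fn1 and Pdgfrb overlapped between the groups, with Igf2 at 31.8 and 24.5 FPKM against 29.1 and 45.3.

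Markers of nerve root and ganglion moved with these genes. All 6 Schwann cell markers were higher in region 5 of the stimulated animals, none of them called, with sums of 260.3 and 308 FPKM in the controls and 489.1 and 489.8 in the stimulated animals. Scn10a, the sodium channel of nociceptors whose cell bodies lie in sensory ganglia, was listed at 0.1 in both controls and at 1.32 and 2.39 FPKM in the stimulated animals. Tyrp1, an enzyme of pigment cells, was listed at 0.1 in both controls and at 2.90 and 2.74 FPKM in the stimulated animals. Sums over 9 sensory ganglion markers were 95.0 and 97.8 FPKM against 121 and 147. The sum of 11 endothelial markers overlapped, at 91.2 and 120.1 against 107 and 126 FPKM. Mural markers were separate, with sums of 95.7 to 113.7 FPKM in the controls and 120.7 to 127.6 in the stimulated animals. Other meningeal genes summed to 81.5 to 85.0 against 97.5 to 121.3 FPKM. For other fibroblast matrix genes the sums were 109.8 to 132.2 against 151.5 to 251.7 FPKM. Astrocyte, oligodendrocyte and microglia and macrophage sums overlapped, and the neuron sum was lower without overlap. The part of root, ganglion, pigment or vessel cells in these values was not tested.

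**Figure D3:**
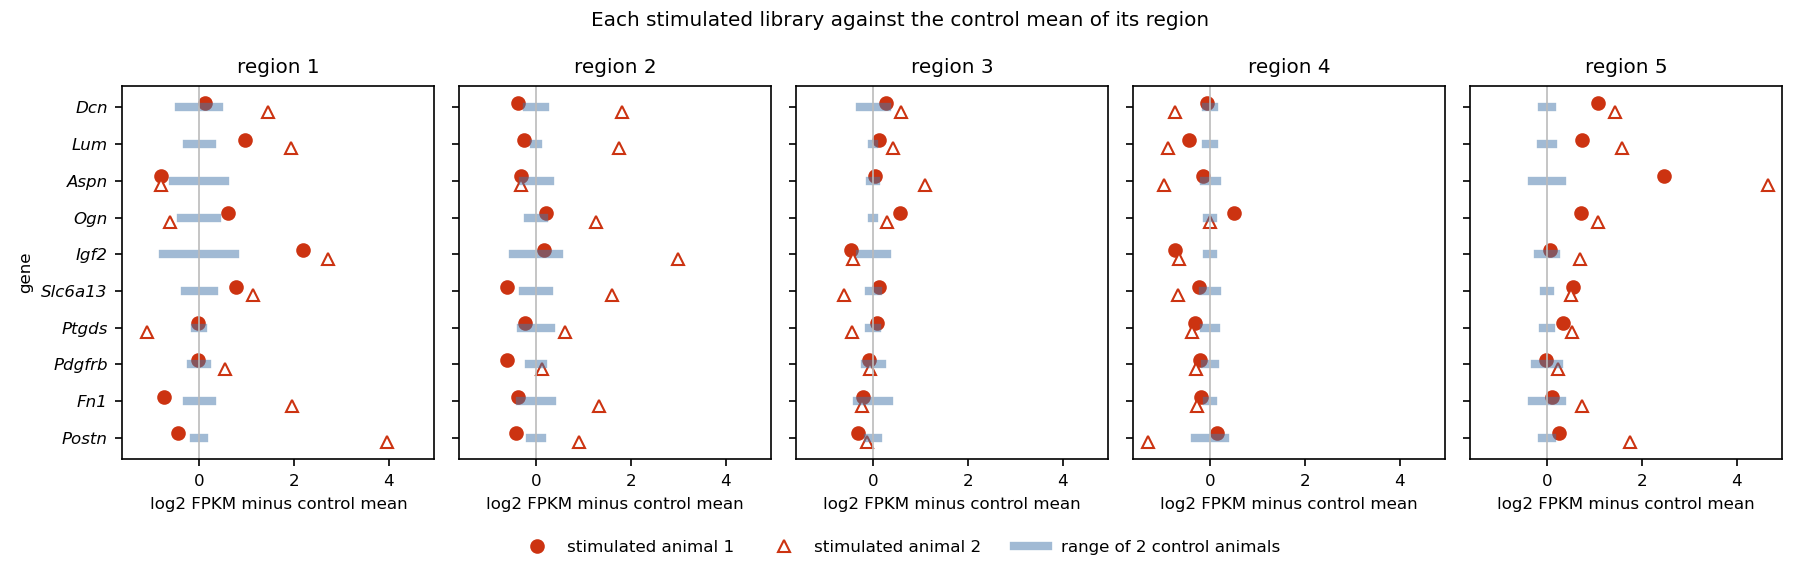
Difference on the log2 scale of each stimulated library from the control mean of its region, for the 10 genes, with filled circles for stimulated animal 1, open triangles for animal 2 and a bar for the range of the 2 control animals. In region 5 both symbols lie at or right of 0 for nearly every gene, and in regions 1 and 2 the triangles lie far from the circles for Postn and Fn1.

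**Figure D4:**
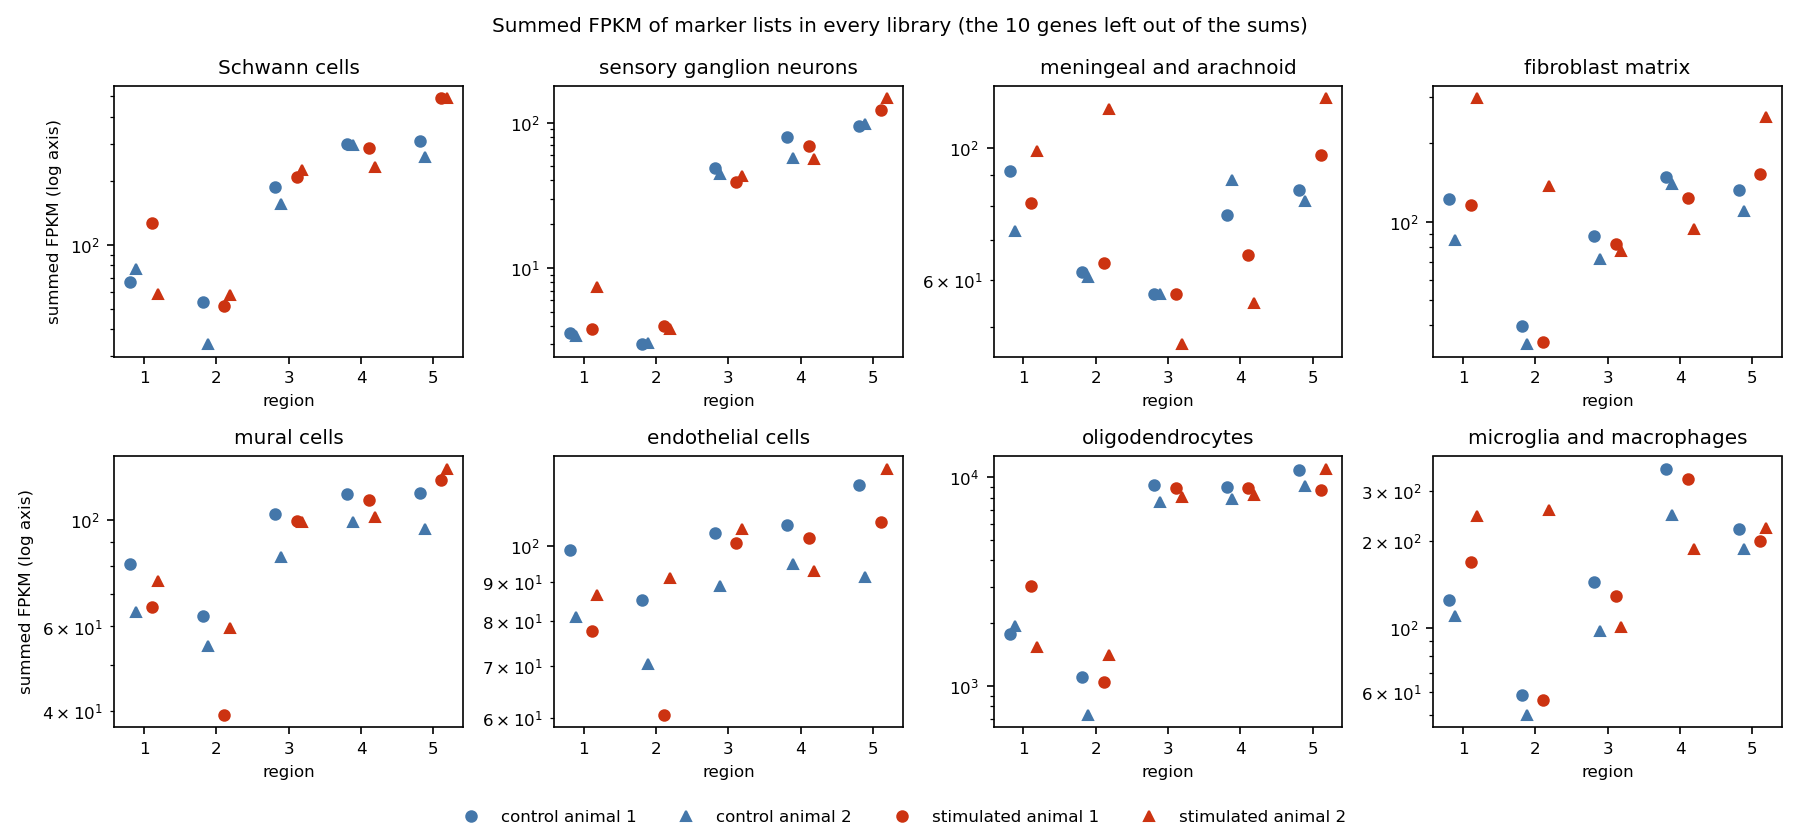
Summed FPKM (log axis) of 8 lists of cell markers in every library by region, with the 10 genes left out of the sums, circles for animal 1 and triangles for animal 2, blue for control and red for stimulated. The Schwann cell sum in region 5 is 489.1 and 489.8 in the stimulated animals and 260.3 and 308 in the controls, and the microglia and macrophage sum of region 2 is 258 in stimulated animal 2.

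Below the electrodes, in region 1, limma called none of the 10 genes, where 0.0% of all genes were called. An unadjusted p under 0.05 was found for 3, and for 5.44% of all genes. Igf2, Slc6a13 and Lum were higher in both stimulated animals without overlap, as were 21.2% of all genes, and Aspn was lower without overlap, as were 19.5%. Igf2 had the largest change. It was at 8.33 and 2.88 FPKM in the controls and at 22.4 and 32.1 FPKM in the stimulated animals, a change of 2.45 ± 0.59 with a limma adjusted p of 0.712. Lum was at 3.59 and 2.48 against 5.81 and 11.5 FPKM (1.45 ± 0.42), and Slc6a13 at 3.41 and 2.24 against 4.73 and 6.08 FPKM (0.96 ± 0.29).

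Postn and Fn1 rested on 1 library. Postn was at 2.32 and 2.00 FPKM in the controls, 1.58 in stimulated animal 1 and 33.4 in stimulated animal 2, a change of 1.76 ± 1.60, and -0.44 without stimulated replicate 2. Fn1 was at 8.99 and 6.26 FPKM, then 4.50 and 29.2, a change of 0.61 ± 1.00, and -0.74 without that library. In the same library Ptgds had its lowest value, 152 FPKM, as against 304 to 343 in the other 3. Other markers stood apart there too, with Col3a1 at 73.3 FPKM against 10.6 to 20.6, Fbln2 at 48.1 against 4.77 to 6.15 and Cd68 at 29.6 against 5.47 to 13.9. Dcn was highest there as well, at 22.1 FPKM.

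In region 2, which lay opposite the implant, limma called none of the 10 and none had an unadjusted p under 0.05, where 0.0% of all genes were called and 1.41% had such a p. Stimulated animal 2 again had the highest value of most genes, with Igf2 at 24.7 FPKM as against 2.22 to 4.38 in the other 3 and Lum at 3.74 against 0.938 to 1.16. Slc6a13 was at 4.62 FPKM there as against 1.01 to 1.85. Aldh1a2, the retinoic acid synthesis enzyme of meninges, followed the same order, with 10.6 FPKM against 2.43 to 3.34, and Cd68 was 11.8 FPKM against 0.514 to 0.695. Stimulated animal 1 lay below both controls for Dcn, Lum, Slc6a13, Fn1 and Postn. Ogn was higher without overlap and Aspn lower, as were 20.2% and 6.77% of all genes.

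Rostral to the lesion, in region 3, the groups were close. Limma called none of the 10, and 0.0% of all genes were called. An unadjusted p under 0.05 was found for 1, and for 3.43% of all genes. Ogn was at 7.79 and 7.64 FPKM in the controls and 11.4 and 9.50 in the stimulated animals, a change of 0.43 ± 0.12 with a limma adjusted p of 0.956. Lum was also higher without overlap, and Igf2 and Postn were lower without overlap, where 5.14% of all genes were higher and 24.7% lower in that way. Igf2 was at 20.6 and 13.9 FPKM against 12.2 and 12.6. Skeletal muscle genes were higher in these stimulated libraries, with Ckm at 1.33 and 3.20 FPKM against 0.421 and 0.478, and their part in the values was not tested.

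At the epicenter, in region 4, the direction was the opposite of that in region 5. Of the 10 genes, 9 were lower in stimulated animals, with a median log2 fold change of -0.43 against 0.00 over all genes. Of these, 7 were lower without overlap, where 7.69% of all genes were. Aspn, among these 7, was at 0.216 and 0.179 FPKM in the controls and 0.177 and 0.1 in the stimulated animals. It passed the filter only through stimulated libraries of region 5, so its direction here supports nothing. Limma called none of the 10, and 0.0% of all genes were called. An unadjusted p under 0.05 was found for 2, and for 2.24% of all genes. Igf2 was at 38.5 and 34.9 FPKM in the controls and 21.9 and 23.2 in the stimulated animals, a change of -0.70 ± 0.12 with a limma adjusted p of 1. Lum was at 6.53 and 7.30 against 5.05 and 3.75 FPKM, a change of -0.66 ± 0.21. All 18 other meningeal genes tested were below 0 in this comparison, none of them called, with sums of 77.1 and 88.2 FPKM in the controls and 66.2 and 54.8 in the stimulated animals.

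The difference between these effects was tested within animals. For the effect in region 4 minus that in region 5, the 9 genes other than Aspn were all below 0. With Aspn the median was -1.04, against -0.05 over all genes. Without Aspn, which was tested only through stimulated libraries of region 5, an unadjusted p under 0.05 was found for 4 of 9, and for 3.04% of all genes. Lum (-1.83 ± 0.46), Dcn (-1.65 ± 0.40), Igf2 (-1.09 ± 0.26) and Slc6a13 (-0.99 ± 0.26) were these 4. None of the 10 passed in limma, each with an adjusted p of 1, where 0.00657% of all genes were called. Aspn differed by -4.13 ± 1.00. For region 1 minus region 2 and for region 4 minus region 3, none of the 10 passed, and 0.0% of all genes were called. In each, 1 of the 10 had an unadjusted p under 0.05, as did 3.78% and 4.19% of all genes.

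Partners of the 10 genes were followed in lists of their pathways. For Igf2, the receptors Igf1r, which carries the growth signal, and Igf2r, which clears the ligand, did not pass between white matter and cord. Igf2r was at 4.66 to 10.0 FPKM and Igf1r at 4.98 to 7.35 FPKM over the 20 libraries. Igf1 differed more. It was at 18.0 to 38.3 FPKM at the epicenter and 4.88 to 7.89 FPKM rostral to it, higher by 2.31 on the log2 scale with a limma adjusted p of 0.000399. Of 11 other genes of this axis tested, 1 was higher and 4 lower in white matter than in cord, where 25.0% and 47.1% of all genes were. H19, the noncoding RNA beside Igf2 that is imprinted in the opposite way, was at 24.0 FPKM in region 1 of stimulated animal 2 and at 0.489 to 1.41 in the other 3 libraries of that region.

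For Pdgfrb, the ligand Pdgfb that pericytes receive from endothelium was at 2.62 to 4.57 FPKM at the epicenter and 1.73 to 2.65 FPKM rostral to it, higher by 0.67 with a limma adjusted p of 0.0255. It was 1 of 5 other PDGF genes to pass there, where 19.6% of all genes did. Hpgds, the other prostaglandin D2 synthase, found in macrophages, was higher at the epicenter by 2.62 (limma adjusted p of 0.00653), while Ptgds differed there by less than its error. The receptors Ptgdr and Ptgdr2 stayed under 0.5 FPKM in every library. Of the transporters related to Slc6a13, all 4 tested were lower in white matter than in cord, as were 47.1% of all genes, and Slc6a12, the betaine transporter that meninges share, was lower by 2.74.

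Receptors of fibronectin and periostin, integrin chains and the syndecan Sdc4, were lower in white matter than in cord in 5 of 7 cases, where 47.1% of all genes were lower. Itgb1, the beta chain common to many integrins, was at 14.1 to 37.1 FPKM in white matter and 29.9 to 58.7 FPKM in cord, a difference of -0.99 with a limma adjusted p of 3.06e-07. At the epicenter 2 of 7 were higher than rostral to it, as were 6.78% of all genes. Tgfb1, which drives matrix genes in fibroblasts, was higher at the epicenter than rostral to it by 1.47 (limma adjusted p of 0.0156) and higher in region 1 than in region 2 by 1.58 (limma adjusted p of 0.0211). Of 9 TGF-beta genes, 3 were higher at the epicenter, where 6.78% of all genes were higher, and 4 in region 1, where 6.86% were. None of these partners passed for stimulation in any region.

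The genes most like each of the 10 were found by Pearson's r of log2 FPKM over the 20 libraries among 13492 genes. These libraries share animals and fall into 2 tissues, so r is given as a description, with its value in white matter (8 libraries) and cord (12 libraries). Dcn was most like Anxa2, with 0.979, and with 0.987 and 0.905 within the tissues. Lum was most like Scara5, a receptor of fibroblasts, with 0.975, and with 0.986 and 0.949 within them. Igf2 was most like Igfbp2, which encodes a binding protein of IGF2, with 0.971, and with 0.973 and 0.877. These 3 pairs held in each tissue as well as between them.

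Slc6a13 was most like Fgl2 (0.969), Fn1 like AABR07073181.1 (0.975) and then Flna (0.968), and Pdgfrb like Igfbp7 (0.900). Ogn was most like Lgi4 (0.962), a secreted Schwann cell protein, and Ptgds like Cmbl (0.977). For Ptgds the value was 0.812 in white matter and 0.845 in cord. Postn was most like Jak2 (0.946), with 0.918 and 0.953 within the tissues. Aspn had the weakest match, Gna14 with 0.832, and that value was -0.02 within white matter, where Aspn lay near the floor.

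Among the 10 genes themselves, Dcn and Lum had r of 0.97 in white matter and 0.95 in cord. Slc6a13 had 0.95 with Dcn in white matter and 0.78 in cord. Ptgds stood apart in white matter, with -0.12 to Dcn and -0.23 to Lum, and joined them in cord with 0.74 and 0.72. Postn and Fn1 had 0.87 in white matter and 0.79 in cord. Ogn and Postn had -0.12 in white matter and 0.66 in cord.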

How the data were processed

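The authors aligned paired reads of ribosome-depleted RNA to Rnor6 with TopHat 2.1.0 and estimated expression with Cufflinks 2.2.1. They deposited FPKM values per gene, with values under 0.1 raised to 0.1, which blurs low genes such as Aspn; the strand setting is not given in the sources used here. Log2 FPKM of the 15210 genes that reached 1 FPKM in 1 or more libraries was fitted with limma 3.58.1 (lmFit, eBayes with trend) in R 4.3.3, adjusted by Benjamini-Hochberg over all genes at 0.05. Regions were compared in all 20 libraries with a mean per region and no term for the animal, so libraries of an animal were taken as independent. Stimulation was compared in the 4 libraries of each region, and effects between regions on differences within animals. Libraries of an animal share that animal, by their titles, and their deviations from region means correlated at 0.41 to 0.77 between regions 1 and 2 and at -0.09 to 0.26 between cord regions. Fits were tested on simulated data with independent noise in every library. That test could not check whether libraries of an animal can be taken as independent. The members and lists were chosen with earlier results of these data known. Named beside the 10 genes were partners of certain role, up to 3 genes per list with the largest change, and the 3 genes most like each; others were named after their values were seen. Alternatives were other pseudocounts, filters, scalings and libraries. There were 0 columns without a sample. Other steps used Python 3.11.15 and pandas 2.3.3.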

Additional observations from a re-analysis of the deposited data

Results flagged for a closer look

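Some values stood apart from the other samples of their group by Dixon's criterion, which chance alone meets in about 1 in 20 groups; 5 of 50 regional groups of 4 and 2 of 10 white matter groups met it here. Postn in region 1 of stimulated animal 2 was 33.4 FPKM, as against 1.58 to 2.32 in the other animals, and it stood apart within all white matter too. Ptgds in the same library was 152 FPKM, below the 304 to 343 of the others. Lum in region 2 of stimulated animal 2 was 3.74 FPKM, as against 0.938 to 1.16. The 3 flags of Aspn were at low levels: 0.152 FPKM in region 2 of control animal 2, 0.355 in region 3 of stimulated animal 2, and 0.253 among the white matter libraries in region 1 of control animal 1.

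For some genes both stimulated animals lay above both controls in 1 region and below both controls in another. These differences were not tested. On the log2 scale the effect in region 1 minus that in region 4 was 2.11 for Lum, 3.16 for Igf2 and 1.42 for Slc6a13. For Igf2 the effect in region 1 minus that in region 3 was 2.91. For Aspn the effect in region 5 exceeded the others, with -4.37 for region 1 minus region 5 and -3.89 for region 2 minus region 5. For Postn the value for region 3 minus region 5 was -1.22.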

How the results depend on the processing

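With 2 animals per group and no read numbers, small changes were beyond reach, and calls near the threshold moved with single libraries. White matter against spinal cord gave 7 to 8 calls among the 10 genes when 1 animal was left out, region 1 against region 2 gave 0 to 6, region 4 against region 3 gave 0 to 3, region 4 against region 5 gave 0 to 1 and region 5 against region 3 gave 0 to 1. Over all 15210 genes the calls were, in that order, 9474 to 11751, 26 to 3674, 523 to 4909, 5 to 1097 and 54 to 1237. For stimulation, leaving out 1 animal left 1 animal in an arm, so only effect sizes are given. Postn in region 1 differed by 3.96 on the log2 scale without stimulated replicate 1 and by -0.44 without stimulated replicate 2. In region 5, Dcn differed by 1.43 and 1.07 in these settings, and Aspn by 4.66 and 2.48. Where 1 animal was left in an arm, limma took the spread from the other arm and from all genes, so the lone animal is assumed to vary like the others. Aspn was tested only through stimulated libraries of region 5, and its calls and differences support nothing. With no filter, region 1 against region 2 and region 5 against region 3 gave 0 calls, since more genes were tested. Over all 30443 genes 698 and 452 were called. Region 5 against region 3 gave 1 call under quantile normalization and with a mean per region and group, 0 without the intensity trend, in control libraries only and with region 5 without stimulated libraries, and 7 with white matter of stimulated animal 2 left out. Over all genes the calls in these settings were, in that order, 1109, 525, 611, 0, 44 and 3034. Region 4 against region 3 gave 3 calls in control libraries only and 3 without that white matter, and region 4 against region 5 gave 1 under each of these and with a mean per region and group. Over all genes the calls were 3265 and 5126 for region 4 against region 3. For region 4 against region 5 they were 201, 3314 and 522. The settings that leave out this white matter or the stimulated libraries of region 5 were chosen after seeing the data. Where the setting is not more genes, the cause was not tested.

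Signs turned in few cases. Pdgfrb between tissues was -0.0151 in control libraries only, -0.0841 with white matter of stimulated animal 2 left out and, leaving out 1 animal, as low as -0.0857. Ptgds between regions 1 and 2 was 0.19 in control libraries only and 0.26 without the white matter of stimulated animal 2, and ran from -0.38 to 0.26 leaving out 1 animal. Aspn between regions 5 and 3 was -0.16 with region 5 without stimulated libraries. Between regions 4 and 5, control libraries only gave 0.24 for Dcn, 0.58 for Lum and 0.11 for Aspn, leaving out the stimulated libraries of region 5 gave 0.0353 for Dcn and 0.24 for Lum, and leaving out 1 animal gave -0.66 to 0.18 for Lum. In region 1, Postn ran from -0.44 to 3.96 and Fn1 from -0.74 to 1.96 leaving out 1 animal, lowest without stimulated replicate 2. No sign turned under another scaling or pseudocount among the values printed.

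With the replicate number as a replicate block, stimulation in region 5 gave 5 calls, namely Dcn, Lum, Ogn, Postn and Aspn, and 443 over all genes. The numbers name different animals, and deviations of same-numbered libraries had r of -0.16 in region 5, so the samples share only a number. The animal as a block moved no count of regions among the 10 genes.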
